A study of Sus scrofa with 4 samples.

Results

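The NF-kB and innate signalling regulators described here are 5 genes, NFKB1, NFKB2, MAP3K8, SIKE1 and CD86. They were chosen by measured values of these same arrays, namely their difference between granulosa cells (GCs) kept with and without non-esterified fatty acids (NEFAs), so that difference is given below as a description, and where a limma criterion is applied to it the outcome is no independent test. A probe belonged to a gene when that gene's symbol was the only one in the annotation of the array, which gave 9 of the 13146 probes with a single symbol. NFKB1, NFKB2 and MAP3K8 had 1 probe each, while SIKE1 and CD86 had 3 each. The brightest probe measured on all 4 arrays stood for a gene, as for the 9962 genes measured in this way.

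NF-kB transcription factors are dimers of Rel family proteins that wait in the cytoplasm, bound by IkB proteins, until a kinase complex releases them. NFKB1 and NFKB2 encode precursors that restrain their partners and are processed to DNA-binding subunits, the first in the canonical pathway and the second in the non-canonical one. MAP3K8 is a kinase that is held by the NFKB1 precursor and, once freed after Toll-like or TNF receptor signalling, activates the MEK and ERK kinases. SIKE1 binds the kinases TBK1 and IKK-epsilon, which switch on interferon genes, and it is also a part of the STRIPAK phosphatase complex. CD86 is a ligand of CD28 and CTLA4 on antigen-presenting cells. In the ovary, NF-kB signalling is known for its part in ovulation, which resembles an inflammatory reaction.

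The cells were porcine GC monolayers grown for 7 days from aspirated follicles of slaughterhouse ovaries and then cocultured with cumulus-oocyte complexes (COCs) for 44 h of in vitro maturation (IVM). The NEFA group received palmitic, stearic and oleic acid throughout IVM, and the control group received the same albumin and ethanol without the acids. Both groups were given EGF, FSH, LH, dibutyryl-cAMP and porcine follicular fluid in the first 22 h, and only EGF and follicular fluid afterwards. There were 4 biological replicates from different days, each pooled from the wells of a plate, and the NEFA and control RNAs of a replicate were hybridized together in different dyes, replicate 1 to array A, replicate 2 to B, replicate 3 to C and replicate 4 to D. The sequences of the probes are not shown, since no table used here holds them.

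The labelling of the arrays touches every value below. The titles of the arrays name the opposite dye for the NEFA RNA from their channel fields on all 4 arrays. The channel fields were followed. Of 595 genes with a published direction, the 5 genes described here left out, 76.3% had the same sign by the channel fields and 23.7% by the titles. The published directions come from these same arrays. They show the orientation that the authors used, and cannot tell which dye held the NEFA RNA, so the direction is not certain. All signs below would be reversed by the reading of the titles. The labelling of arrays A and B was the same, yet their ratios ran against each other over the 43794 probes (Pearson r = -0.74 across probes, which are not independent replicates), whereas arrays C and D had r = 0.47. By the ratios of NEFA to control as headed, array A had r = 0.32 with C and 0.30 with D. Array B had r = -0.41 with C and -0.33 with D, so as headed B ran against every other array. In its median local background array A stood apart, with 117 for green and 63.3 for red. The other arrays had 60.8 to 75.1 for green and 116 to 173 for red. No label states that its columns were exchanged, so each ratio is given as headed and with the channels of array A exchanged, under which 65.9% of the 595 genes kept the published sign. After the exchange, the ratios of NEFA to control on arrays labelled alike had r = 0.74 (A and B) and 0.47 (C and D). Those on arrays of opposite labelling had r between -0.41 and -0.30. A fit with a dye term is also given. For the exchanged reading it does not model this split of the arrays and is no check of a dye effect. In the exchanged reading this dye-term fit kept the dye of array A as headed, so array B alone counted as the other dye orientation. It weighs B as much as A, C and D together, and is not the dye term of exchanged columns. A signal was called above background when, after subtraction of the local background, it exceeded the mean of the 153 negative controls of its array and dye by 2 SD, which 25.2% to 37.7% of probes did.

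The 5 genes did not share one pattern. NFKB1 was lower in the NEFA RNA of 3 of 4 arrays as headed, while NFKB2, SIKE1 and CD86 were higher in 3 of 4 arrays as headed and in 4 of 4 with array A exchanged. MAP3K8 was higher in 3 of 4 arrays as headed and in 2 of 4 after the exchange. Under the criterion of an unadjusted limma p under 0.05 with at least a 1.2-fold difference, 1 of the 5 genes (NFKB1, lower) passed as headed, where 0.803% of all genes passed. With array A exchanged, 3 of the 5 (NFKB2, SIKE1 and CD86, all higher) passed, where 4.17% of all genes did. In the dye-term fit of the exchanged reading, which weighs array B most, the same 3 passed, where 4.38% of all genes did. Since the genes were selected on this contrast, nothing is read from these counts. No probe of the 5 genes had a Benjamini-Hochberg adjusted value under 0.05 in limma in either reading.

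**Figure D1:**
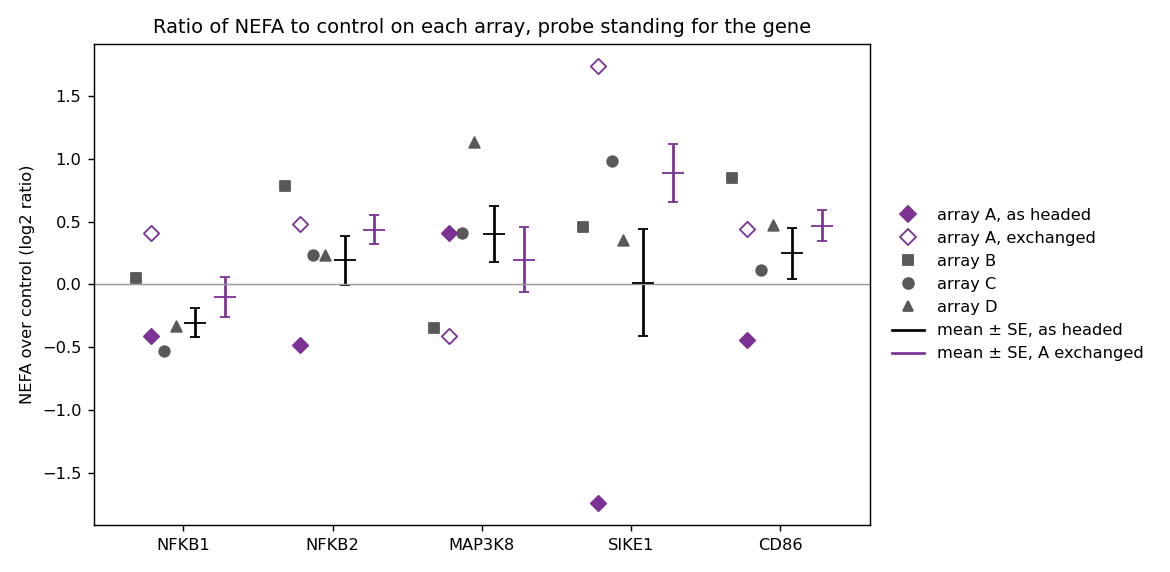
The vertical axis is the log2 ratio of NEFA to control, for the probe standing for each of the 5 genes. Symbols are the 4 arrays, with array A as headed (filled diamonds) and exchanged (open diamonds), and bars are the limma mean ± standard error over 4 arrays as headed (black) and with array A exchanged (purple). SIKE1 shows the widest gap between the readings, at 0.01 and 0.89, because its ratio on array A was -1.74 as headed.

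NFKB1, the canonical precursor, was above background in 8 of 8 RNAs. As headed, its normalized log2 intensity was 8.76, 9.29, 8.94 and 8.76 in the NEFA RNA of arrays A to D and 9.17, 9.24, 9.48 and 9.09 in the control RNA. The groups overlapped, with the NEFA RNA of array B as high as control RNAs and the other 3 NEFA RNAs below every control. The log2 ratio of NEFA to control was -0.41, 0.05, -0.53 and -0.33 on arrays A to D, and its mean was -0.31 (standard error 0.11, SD over arrays 0.25, n = 4). With array A exchanged the mean was -0.10 (standard error 0.16) and 2 of 4 arrays lay above 0. The value as headed passed the criterion without replicate 2, at -0.43, but no longer without replicate 1 (-0.27), replicate 3 (-0.23) or replicate 4 (-0.30).

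NFKB2, the non-canonical precursor, was close to background, since 1 of its 8 RNAs, the NEFA RNA of array B, exceeded the threshold. Its log2 intensity was 7.75, 8.33, 8.25 and 8.19 in the NEFA RNA of arrays A to D as headed, against 8.23, 7.55, 8.01 and 7.95 in the control RNA. As headed the groups overlapped through array A. With array A exchanged the NEFA RNAs ran from 8.19 to 8.33 and the controls from 7.55 to 8.01. Nothing is read from this gap, since NFKB2 was chosen on this contrast and only 1 of its 8 RNAs was above background. How many of all genes show such a gap was not counted. The log2 ratios were -0.48 (0.48 if exchanged), 0.78, 0.24 and 0.24, with a mean of 0.19 (standard error 0.19) as headed and 0.44 (standard error 0.12) exchanged. As headed the mean was 0.42 and passed the criterion without replicate 1, and it was -0.0035 without replicate 2. In the dye-term fit, where array B (0.78) weighs as much as the other arrays together, the exchanged value was 0.55. No fold is given for NFKB2, because no control RNA was above background and the mean NEFA level did not exceed the lowest level seen above background in the control channels.

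MAP3K8, the kinase bound by the NFKB1 precursor, was above background in 8 of 8 RNAs, and it differed more between arrays than between NEFA and control. Its log2 intensity was 13.33, 13.50, 14.40 and 10.79 in the NEFA RNA of arrays A to D as headed, and 12.92, 13.84, 13.99 and 9.65 in the control RNA. Both RNAs of array D were far below all RNAs of the other arrays. The mean of the pair on array D was 10.9-fold below the mean of arrays A, B and C, and a gap as low was found in 24 of 9962 genes (0.241%). Among the 23 probes within 2 rows and columns of the MAP3K8 spot the same gap had a median of 0.01 and a lowest value of -3.97 on the log2 scale, beside -3.44 for MAP3K8. The part of the replicate, the array and the probe in this gap was not tested.

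For MAP3K8 the log2 ratio was 0.41, -0.35, 0.41 and 1.14 on arrays A to D. Array D, where the gene was dimmest, thus gave the highest ratio. The mean was 0.40 (standard error 0.22, SD over arrays 0.60) as headed and 0.20 (standard error 0.26) with array A exchanged. In the dye-term fit, where array B (-0.35) weighs as much as the other arrays together, the exchanged value was 0.02. Without replicate 4 the means were 0.16 as headed and -0.11 exchanged, so the direction of the exchanged value turned, and without replicate 2 the value as headed was 0.65 and passed the criterion.

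**Figure D2:**
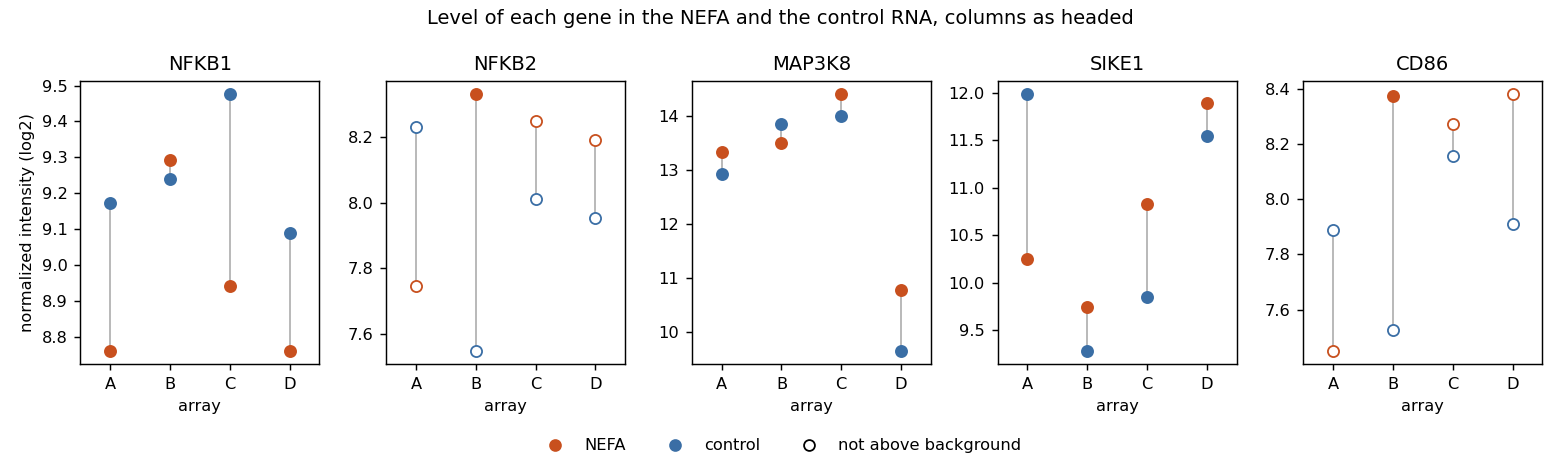
Each panel is a gene, with the array on the horizontal axis and the normalized log2 intensity of the NEFA RNA (orange) and the control RNA (blue) of that array on a vertical axis of its own range, columns as headed. Open circles are RNAs not above background, which are 7 of 8 for NFKB2 and for CD86. For MAP3K8 both RNAs of array D lie at 10.79 and 9.65, below the other arrays, and an exchange of array A would swap its colours.

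SIKE1, the suppressor of IKK-epsilon and TBK1, had 3 probes that did not behave alike. The brightest (EMPV1_21553) was above background in 8 of 8 RNAs, with log2 intensities of 10.25, 9.74, 10.83 and 11.90 in the NEFA RNA of arrays A to D as headed and 11.99, 9.28, 9.85 and 11.54 in the control RNA. The groups overlapped in both readings, since the arrays differed from each other by more than the RNAs of an array did, with array means between 9.51 and 11.72. Its log2 ratios were -1.74 (1.74 if exchanged), 0.46, 0.98 and 0.36. By size, the ratio on array A ranked 15 among 9962 genes, and the 23 probes around the spot had ratios between -0.68 and 0.51 there.

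The mean ratio of this probe was 0.01 (standard error 0.42) as headed and 0.89 (standard error 0.23) with array A exchanged, or 1.85-fold. In the dye-term fit, weighted towards array B, the exchanged value was 0.74. Leaving out replicate 1 gave 0.60, which passed the criterion, whereas as headed the mean was below 0 without replicate 2 (-0.14), replicate 3 (-0.31) or replicate 4 (-0.10). The second probe (EMPV1_28710) was above background in 7 of 8 RNAs and had ratios of 0.48, -0.41, 0.56 and 0.27 on arrays A to D, with means of 0.22 as headed and -0.02 exchanged. The third (EMPV1_38973), above background in 5 of 8 RNAs, had 0.42, 0.12, -0.0015 and 0.65, with means of 0.30 and 0.09. On array A the brightest probe was thus opposite in sign to the others, and the exchanged value of SIKE1 above 0.8 was seen with the brightest probe only. Whether the probes measure the same transcripts was not tested.

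CD86, the co-stimulatory ligand, was close to background. For the probe that stands for it (EMPV1_11389), 1 of 8 RNAs, the NEFA RNA of array B, was above background, and without subtraction of the local background it was 2 of 8. Its log2 intensity was 7.45, 8.37, 8.27 and 8.38 in the NEFA RNA of arrays A to D as headed, against 7.89, 7.53, 8.16 and 7.91 in the control RNA. As headed the NEFA RNA of array A was the lowest of all 8, while the other 3 NEFA RNAs were above every control. The ratios were -0.44 (0.44 if exchanged), 0.85, 0.12 and 0.47, with means of 0.25 (standard error 0.20) as headed and 0.47 (standard error 0.13) exchanged. As headed the mean was 0.48 and passed the criterion without replicate 1, and it was 0.049 without replicate 2. In the dye-term fit, where array B (0.85) weighs as much as the other arrays together, the exchanged value was 0.59. No fold is given, for the reason stated for NFKB2.

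The other probes of CD86 had lower means than EMPV1_11389 in both readings. EMPV1_28711 was above background in 0 of 8 RNAs and had ratios of -0.26, 0.20, -0.28 and -0.21. EMPV1_22841 was the brightest of the 3 on arrays A and B but not on array C, and was ignored by the extraction software on array D. It was above background in 3 RNAs, all of arrays A and B. Its ratios on arrays A, B and C were -0.11, 0.10 and 0.31, with the sign of EMPV1_11389 on each. The mean of EMPV1_22841 was 0.10 as headed and 0.17 exchanged. Averaging all probes of the gene gave CD86 0.07 as headed and 0.21 exchanged, and neither value passed the criterion.

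**Figure D3:**
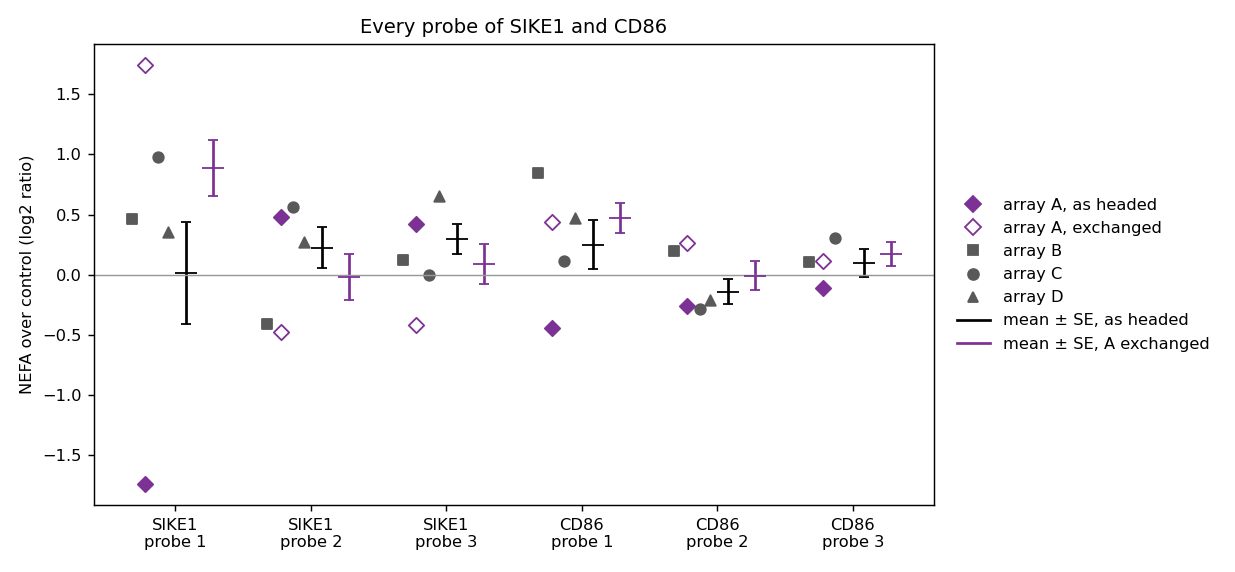
The log2 ratio of NEFA to control (vertical axis) is plotted for the 3 probes of SIKE1 and the 3 of CD86, in the order in which the text gives them, with symbols for the 4 arrays and bars for the mean ± standard error as headed (black) and with array A exchanged (purple). The first probe of each gene has the highest exchanged mean, 0.89 for SIKE1 and 0.47 for CD86, and the others lie between -0.02 and 0.17.

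**Figure D4:**
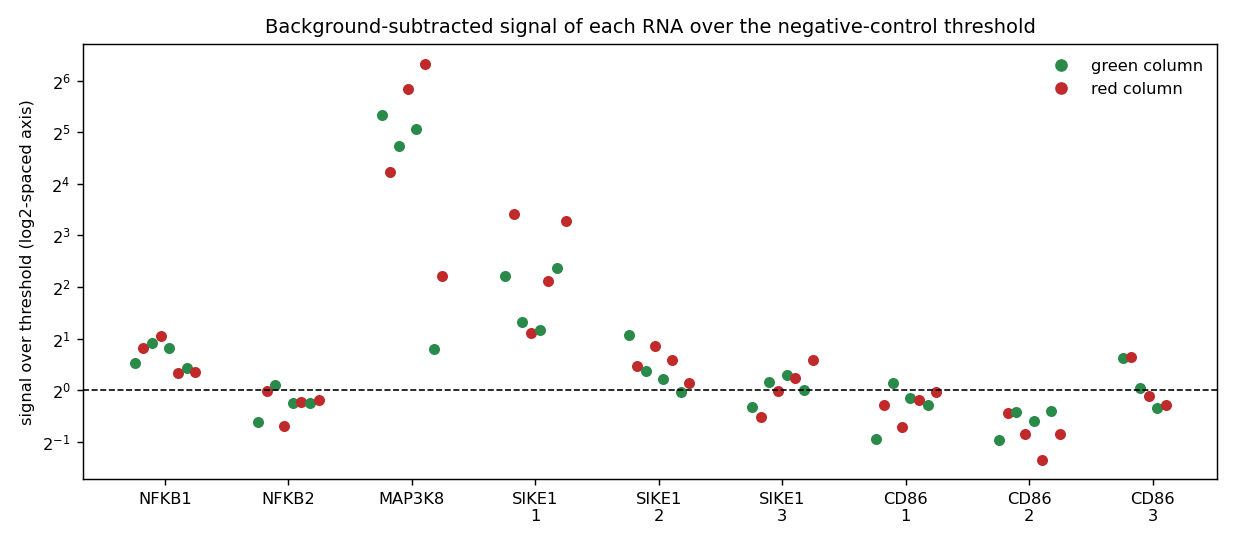
The background-subtracted signal divided by the threshold of its array and dye is shown on a log2-spaced axis for the 9 probes, with 8 RNAs each (6 for the third CD86 probe) in the order of arrays A to D, in the green and the red column. The dashed line is the threshold. MAP3K8 lies between 1.75 and 80.1 times the threshold, while NFKB2 lies between 0.616 and 1.08 times.

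Over the 8 normalized intensities, the genes resembled each other little. NFKB2 and CD86, both near background, had r = 0.86, and their ratios had the same sign on 4 of 4 arrays. SIKE1 also had the sign of NFKB2 on 4 of 4 arrays, with r = 0.48 between their levels. NFKB1 and MAP3K8 had opposite signs on 4 of 4 arrays, although their levels had r = 0.34. MAP3K8 and SIKE1 had r = -0.66. These correlations describe 8 RNAs that share arrays and dyes in pairs. The genes were chosen on their ratios on these same arrays, so shared signs are partly built in and nothing is read from them.

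Among the 2545 other genes above background in all 8 RNAs, the most similar to MAP3K8 were MAP1A (r = 0.9997 over 8 RNAs) and ZNF516 (r = 0.999). In all, 151 genes exceeded r = 0.9 with MAP3K8, and all such values include the gap of array D. NFKB1 was most similar to NSDHL, a sterol dehydrogenase of cholesterol synthesis (r = 0.98), and to SLC25A28, a mitochondrial iron carrier (r = 0.94). For NFKB2 the closest were SMTN and ACADVL, the latter an enzyme of fatty acid oxidation, both with r = 0.88. SIKE1 was closest to PDLIM1 and ACTC1, both with r = 0.89. CD86 was closest to UGCG, a ceramide glucosyltransferase (r = 0.90), and PRKAA2, a catalytic subunit of AMP-activated kinase (r = 0.87). With NFKB1, 6 genes exceeded r = 0.9, and with NFKB2, SIKE1 and CD86, 0 did. The closest genes are the highest of 2545 or 2546 correlations over 8 RNAs, and NFKB2 and CD86 were near background. No link in function was tested.

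The partners of the 5 genes were examined in 9 lists chosen by function, of which 116 of 185 genes were measured. Of these 116 genes, 48 were above background in no RNA and 31 in all 8. As headed, 1 of the 116 genes rose and 0 fell. With array A exchanged, 4 rose and 5 fell by the criterion, and in the dye-term fit, weighted towards array B, 6 rose and 5 fell. Over all genes measured, 0.803% passed as headed, 4.17% exchanged and 4.38% with the dye term. None of the genes that passed as headed or exchanged had an adjusted p under 0.05 in limma. The median log2 ratio over the 116 genes was 0.01 as headed and 0.02 exchanged, beside -0.02 and -0.01 over all genes. In bulk RNA of this kind, fewer cells of a type and less RNA per cell cannot be told apart.

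Of the partners of NFKB1 and NFKB2, 0 of 7 Rel and IkB genes passed in either reading. NFKBIA, the IkB protein that NF-kB itself induces, was above background in 8 of 8 RNAs and had ratios of -0.05, -0.08, 0.35 and 0.79 on arrays A to D, with means of 0.25 (standard error 0.16) as headed and 0.28 exchanged. None of the 20 measured genes of the IKK complex and its adaptors and none of the 17 Toll-like and interleukin receptor genes passed. However, 9 of the 20 and 9 of the 17 were above background in no RNA, and only 1 and 4 in all 8. Among 21 NF-kB target genes, 0 passed as headed, whereas SOD2 and CCL2 rose and PLAU fell with array A exchanged. SOD2, the mitochondrial superoxide dismutase, had ratios of -0.76 (0.76 if exchanged), 0.81, 0.46 and 0.89, and an exchanged mean of 0.73 (standard error 0.10, limma adjusted p = 0.397). CCL2, a chemokine for monocytes, had an exchanged mean of 0.39 (limma adjusted p = 0.981), and PLAU, the urokinase, had -0.34 (limma adjusted p = 0.647).

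In the list of the MAP kinase arm, 1 of 14 genes passed as headed. Not all of the list lies downstream of MAP3K8, since it also holds BRAF, MAP3K1 and MAP3K5. The gene that passed was FOS, an immediate early transcription factor, with ratios of -0.09, 0.58, 0.29 and 1.02 and a mean of 0.45 (standard error 0.18, limma adjusted p = 1.00). With array A exchanged, FOS (0.49) and DUSP1 (0.49), a phosphatase that switches off MAP kinases, rose, and MAP2K1, which is the MEK kinase that MAP3K8 phosphorylates, fell (-0.28). DUSP1 had a mean of 0.20 as headed and MAP2K1 had -0.06. In the dye-term fit the exchanged value of MAP2K1 was -0.27 and no longer passed. JUN, the partner of FOS, passed there at 1.34, where array B (2.12) weighs as much as the other arrays together. The exchanged mean of JUN without that term was 0.94 and did not pass. The other named genes of the lists that passed after the exchange also passed with the dye term, as did ICAM1 (0.38) and the STRIPAK gene FGFR1OP2 (-0.28), and these 2 and JUN were named after their values were seen.

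Of the partners of SIKE1, 1 of 14 genes of TBK1 signalling and nucleic acid sensing passed, and only with array A exchanged. It was TANK, an adaptor that binds TBK1, at -0.39 (limma adjusted p = 0.744). Of 11 STRIPAK genes, PPP2CA, the catalytic subunit of the phosphatase, fell by 0.33 and PDCD10 fell by 0.35 in that reading. As headed, TANK had -0.11, PPP2CA -0.14 and PDCD10 -0.14, and none passed. Of 17 listed interferon-stimulated genes 8 were measured, and 0 of these passed in either reading, with medians of 0.05 as headed and -0.04 exchanged. However, 3 of the 8 were above background in no RNA, and only 2 in all 8 RNAs. IRF3, the factor that TBK1 phosphorylates, was above background in 8 of 8 RNAs and had ratios of 0.51, -0.49, 0.76 and 1.44, and its means of 0.56 and 0.30 did not pass. NFKBIA and IRF3 were singled out after their values were seen.

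**Figure D5:**
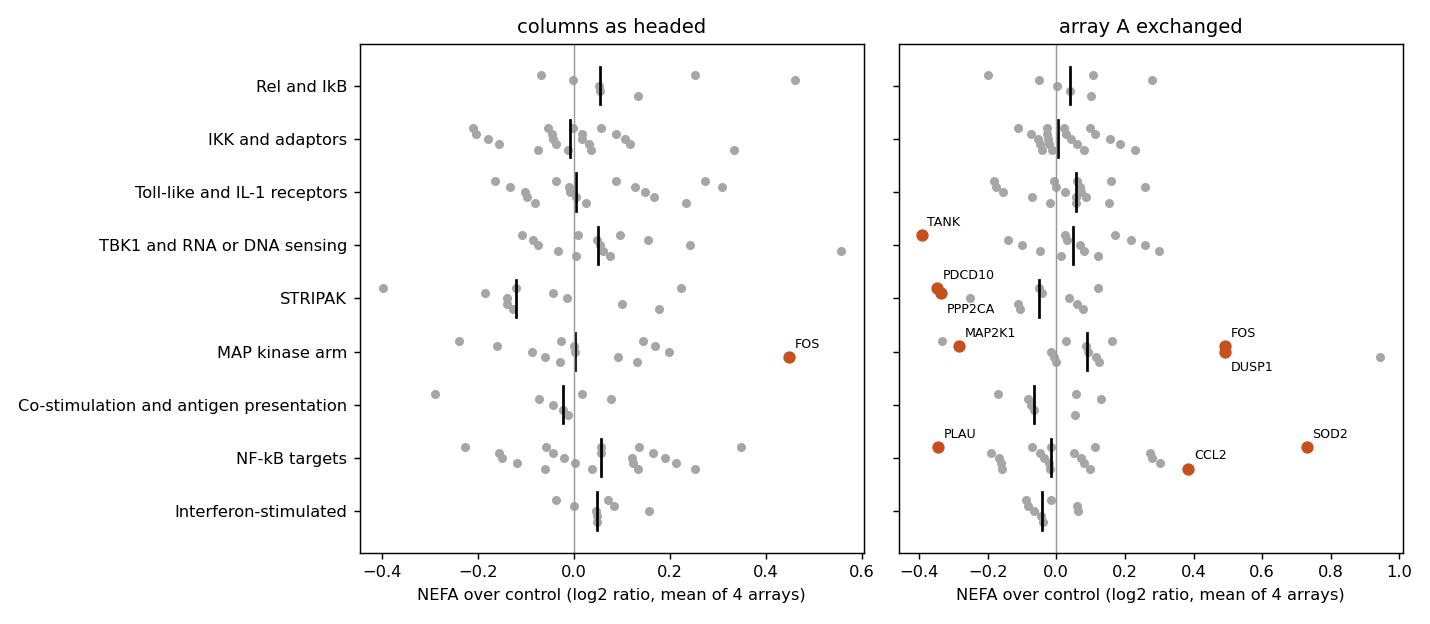
Each point is a gene of 9 lists (rows), placed by its mean log2 ratio of NEFA to control over 4 arrays, as headed (left) and with array A exchanged (right). Named orange points passed the criterion, and black bars are list medians. As headed FOS alone passed, and after the exchange 9 genes did.

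For CD86, 0 of 7 measured genes of co-stimulation and antigen presentation passed in either reading, and 6 of the 7, among them CD80 and the CD86 receptors CD28 and CTLA4, were above background in no RNA. The exception was CD40, a receptor of the TNF receptor family, with 8 of 8 RNAs above background and means of -0.29 as headed and -0.17 exchanged. Of 10 measured leukocyte and macrophage markers, 6 were above background in no RNA and 0 in all 8. CSF1R was above background in 4 of 8 RNAs, CD79A in 3, and CD4 and PTPRC, which marks leukocytes, in 2 each. The summed linear intensity of the 10 markers lay between 2453 and 2747 in the NEFA RNAs and between 2481 and 2775 in the control RNAs, in either reading. Since these markers were mostly not above background, the sums cannot tell whether leukocyte content was alike. The part of leukocytes in the values of CD86 was not tested.

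Of 12 granulosa markers 5 were measured, of which AMH and FST were above background in all 8 RNAs and INHBA and LHCGR in none. The theca markers CYP17A1 and INSL3 were above background in no RNA. The stromal genes DCN and LUM were above it in all 8, PDGFRA in 7 and COL1A1 in 3. Of the oocyte markers, GDF9 was above it in all 8, ZP3 in 1, and ZP2 and BMP15 in no RNA. No gene of the granulosa, theca and stroma, endothelial or oocyte lists passed the criterion in either reading.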

How the data were processed

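Amplified RNA labelled with both dyes was hybridized by the authors to EmbryoGENE porcine arrays, whose spots were extracted in Array-Pro. The deposited intensity values are the mean intensity of each of 45220 spots and its mean local background in both channels, not normalized. A deposited table of ratios (4 columns) was not used, because its rows could not be matched to probes. The depth of an array is unknown, and the number of arrays limits the precision.

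Intensities of 43794 probes received a normexp correction (offset 50) rather than the subtraction named in the methods, and were normalized with loess within and quantile between arrays. Spots ignored by the extraction software (60 to 121 per array) were set to missing. A model with 1 coefficient, signed by the dye orientation, was fitted with limma 3.58.1 in R 4.3.3, two-sided, with Benjamini-Hochberg adjustment over all probes. The authors also used limma, per the labels, with no version given. Of the probes, 13146 had 1 gene symbol and 165 old symbols were updated through RefSeq. The array build is not given in the sources used here, so no coordinates are printed.

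The 5 genes and the gene lists were chosen with earlier results of these data known. The rule for named genes took, from each list, up to 4 genes per reading past the criterion by smallest p, and for each of the 5 genes the 2 most correlated ones. The alternatives were background subtraction (floor 1) or none, the median for loess, no quantile step, a filter to detected probes, the 8 channels as independent samples (no replicate block), a dye term, a trended robust prior, the mean over probes, the exchange of array A with and without a dye term, each SIKE1 probe and each replicate left out. With the exchange, the dye term kept the dye of array A as headed, which gives array B the most weight. The procedure was tested on simulated data.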

Additional observations from a re-analysis of the deposited data

Results flagged for a closer look

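In groups of 4 values, an extreme value was marked where its gap to the nearest other value exceeded Dixon's critical share of the range. Of 48 groups checked over the 9 probes and both readings, which share values, 3 were marked, and chance marks about 1 in 20. The control level of MAP3K8 on array D was 9.65 on the log2 scale with array A exchanged, against 13.33 to 13.99 on the other arrays. The NEFA level of CD86 (EMPV1_11389) on array A was 7.45 as headed, against 8.27 to 8.38. The log2 ratio of the CD86 probe EMPV1_28711 on array B was 0.20 as headed, against -0.28 to -0.21, and this probe was above background in no RNA.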

How the results depend on the processing

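As headed, the number of the 5 genes past the criterion went from 1 to 0 without background correction, without normalization between arrays, with detected probes only, with no replicate block and with the trended robust prior, and to 3 with array A exchanged, with or without a dye term. It was 0 to 3 with a replicate left out. With array A exchanged it went from 3 to 1 without background correction and with detected probes only, the latter because NFKB2 and CD86 leave the fit. The number of all genes past the criterion went from 80 as headed to 19 without background correction, 10 with detected probes only, 44 with no replicate block, 415 with array A exchanged, 436 with a dye term added, and 27 to 1469 with a replicate left out, the highest without replicate 2. Exchanged, it went from 415 to 152 with no replicate block, and to 311 to 674 with a replicate left out. Genes of the lists past the criterion went from 1 as headed to 0 with background subtraction, no normalization between arrays, detected probes only or no replicate block, to 3 with a dye term, 9 exchanged, 11 with a dye term too, and 0 to 20 with a replicate left out. Exchanged, they went from 9 to 2 with no replicate block and to 6 to 14 with a replicate left out.

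NFKB1 went from -0.31 as headed to -0.048 with array A exchanged and a dye term. With array A exchanged, SIKE1 went from 0.89 to -0.015 by probe EMPV1_28710, which turned its sign, and to 0.089 by EMPV1_38973. NFKB2, SIKE1 and CD86 kept their sign in that reading under every other alternative run. Without background correction NFKB2 (0.25) and CD86 (0.21) no longer passed there, nor did SIKE1 with no replicate block or CD86 by the mean of all its probes. Where no cause is given, the cause was not tested. The authors' table of ratios was not run as an alternative, because its rows could not be matched to probes. No paired analysis by replicate number was possible because the groups of arrays share no numbers; the array pairs its own RNAs. NFKB2 and CD86 were above background in 1 of 8 RNAs each. The reading without background subtraction of the above-background count was chosen after seeing the data.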
